A study of Mus musculus with 18 samples.

Results

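Immediate early genes are switched on from factors that already sit in the cell, without new protein synthesis. Kinase cascades of the mitogen-activated protein kinase family act on serum response factor (SRF) with its ternary complex partners and on CREB, and the RNAs appear quickly and decay quickly. In macrophages they follow stimulation through Fc and Toll-like receptors, and they are also known to be switched on while a tissue is being taken apart by enzymes. The 10 members described here were chosen by symbol, out of 24421 gene symbols in the count files. They are the AP-1 subunits *Fos*, *Fosb*, *Jun* and *Junb*, the zinc finger factors *Egr1* and *Egr2*, the stress-induced factor *Atf3*, the orphan nuclear receptor *Nr4a1*, the nuclear protein gene *Ier2*, and *Btg2*, an antiproliferative cofactor of mRNA deadenylation.

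Macrophages of the synovium of adult WT C57BL/6 mice were sorted into LYVE1+CX3CR1+ (negative for MHCII and Ly6C), MHCII+CD11c- and MHCII+CD11c+ subsets after digestion with collagenase, and the RNA was sequenced in bulk. Mice were untreated controls or were killed 8 h after intravenous injection of immune complexes (IC), which were ovalbumin with rabbit antibody against it. Whether the untreated mice received a vehicle injection is not given in the sources used here, so an effect of the injection and one of IC cannot be told apart. Each of the 6 groups had 3 libraries, and a library held cells pooled from 3 mice. P-values therefore measure the spread between these pools. The study describes a single protocol of digestion and sort, and does not say whether untreated and IC mice were processed in the same sessions. Effects of treatment and of session can therefore not be told apart. In bulk RNA fewer cells of a type and less RNA per cell cannot be told apart either.

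Total counts lay between 671244 and 2172358 in 16 libraries. They were 381217 and 245903 in libraries 1 and 2 of MHCII+CD11c- macrophages after IC. All 10 macrophage markers (*Cd68*, *Adgre1*, *Csf1r* and others) had counts in every library, and most transcripts of the sort proteins separated the subsets. *H2-Ab1*, a class II gene, stood at 20.1 to 44.3 CPM (TMM-scaled counts relative to the library total) in LYVE1+CX3CR1+ libraries and at 2670 to 7825 in the others, and *Itgax*, which encodes CD11c, at 240 to 383 CPM in MHCII+CD11c+ libraries and at 0 to 70.6 in the others. *Lyve1* separated the untreated subsets (2171 to 2563 CPM against 329 to 882 in MHCII+ libraries) and, at 3172 to 3555 against 516 to 2290 CPM, those after IC, but the highest MHCII+CD11c- IC library was above the lowest untreated LYVE1+CX3CR1+ library. Library 2 of the MHCII+CD11c- IC group stood apart from the rest. It was the smallest, its 10 members summed to 9564 CPM against 11365 to 19202 in the other 17 libraries, and it held the lowest level of 5 of the 10 members. Its nuclear RNAs *Malat1* and *Neat1* summed to 13171 CPM, against 3718 to 6081 in the other 8 IC libraries and 7559 to 14101 in the untreated ones. Values without this library are given beside the results that it moves.

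The members were abundant in every group. Together they took 1.03 to 1.88% of the counts of a library, and the lowest count of any member in any library was 34, for *Egr2*. *Fos* ranked first of the 10 in all 6 groups when levels were divided by exon length, with group means of 1372 to 1782 CPM per kb. *Junb* came next and *Jun* after it in every group, and *Egr2* was last at 44.6 to 105 CPM per kb. The highest library exceeded the lowest by 1.61 times for *Ier2* and by 4.31 times for *Egr1*, and the other members lay between these ratios. The plot of CPM by library shows that among untreated libraries *Btg2*, *Egr2*, *Ier2* and *Junb* were lower in every LYVE1+CX3CR1+ library than in every MHCII+ one.

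**Figure D1:**
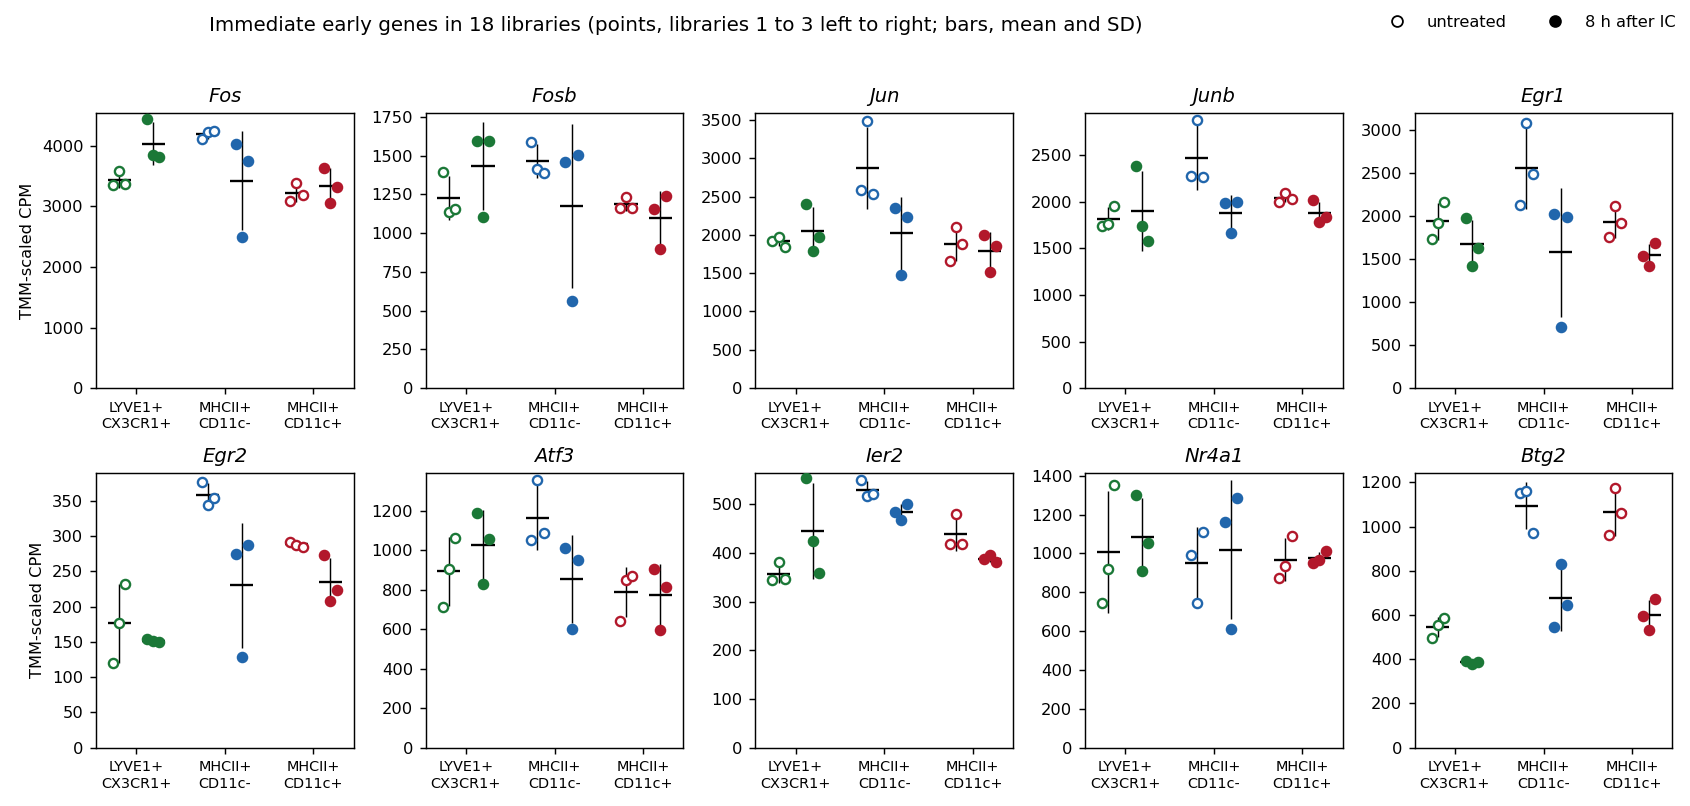
TMM-scaled CPM of the 10 immediate early genes (vertical axes, from 0) in the 3 subsets, untreated (open points) and 8 h after IC (filled points), with the mean and SD of 3 libraries as bars. *Btg2* lies lowest in LYVE1+CX3CR1+ macrophages and is lower after IC in each subset, and library 2 of the MHCII+CD11c- IC group lies far below its 2 partners for *Fosb*, *Egr1*, *Egr2* and *Nr4a1*.

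Without treatment, the first question was whether subsets digested and sorted by the same protocol differ in these genes. Between LYVE1+CX3CR1+ and MHCII+CD11c- macrophages, 4 of the 10 members were lower in LYVE1+CX3CR1+ macrophages and none was higher in edgeR's quasi-likelihood test (adjusted p under 0.05 over 10550 genes). Of the 10550 genes tested, 11.4% were called in either direction and 7.12% were called lower. The 4 were *Btg2*, *Egr2*, *Ier2* and *Jun*. Members had a median log2 fold change of -0.42, against -0.02 over all genes tested, and 9 of the 10 values were below 0. In 6 of the 10 every LYVE1+CX3CR1+ library lay below every MHCII+CD11c- library, as was the case for 14.6% of genes tested.

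*Btg2* (chr1:134074865-134079155, minus strand, GRCm38) gave the smallest adjusted p of the 10 members. It stood at 497, 556 and 586 CPM in libraries 1 to 3 of untreated LYVE1+CX3CR1+ macrophages, at 1152, 1160.1 and 970.5 in MHCII+CD11c- macrophages and at 959.9, 1175 and 1062 in MHCII+CD11c+ macrophages. Every LYVE1+CX3CR1+ library lay below every MHCII+ library, and the MHCII+ subsets overlapped. The log2 fold change was -1.001 against MHCII+CD11c- (SE 0.16, adjusted p = 7.81e-05) and -0.96 against MHCII+CD11c+ macrophages (SE 0.15, adjusted p = 3.67e-05), or 2 and 1.95 times lower. Between the MHCII+ subsets it was -0.04, with a 95% interval of -0.35 to 0.28. Both LYVE1+CX3CR1+ differences were called in all 28 other fits.

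*Egr2* (chr10:67534469-67542188, plus strand), a factor needed for myelination and for alternative activation of macrophages, showed the same order. Its 3 untreated libraries stood at 121, 177 and 232 CPM in LYVE1+CX3CR1+, at 377, 344 and 354 in MHCII+CD11c- and at 292, 288 and 284 in MHCII+CD11c+ macrophages. No library of one subset reached those of another, and the LYVE1+CX3CR1+ libraries were the most spread. The log2 fold changes of LYVE1+CX3CR1+ macrophages were -1.02 against MHCII+CD11c- (SE 0.22, adjusted p = 0.00234) and -0.70 against MHCII+CD11c+ macrophages (SE 0.21, adjusted p = 0.0176). The first was called in all 28 other fits and the second in 26, the exceptions being the fits without library 1 (-0.49, adjusted p = 0.149) or library 2 (-0.69, adjusted p = 0.0626) of LYVE1+CX3CR1+ macrophages. *Egr1*, the other member of the family (chromosome 18), stood at 1739 to 2170 CPM in LYVE1+CX3CR1+ macrophages, at 2128 to 3082 in MHCII+CD11c- and at 1760 to 2125 in MHCII+CD11c+ macrophages. Its groups overlapped in both comparisons, with log2 fold changes of -0.40 (adjusted p = 0.331) and 0.00 (adjusted p = 0.996, 95% interval -0.48 to 0.49).

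The AP-1 subunits differed less. *Jun* (chr4:95049036-95052222, minus strand), the partner of FOS proteins in AP-1, stood at 1924, 1973 and 1846 CPM in untreated LYVE1+CX3CR1+ macrophages, at 2587, 3485 and 2535.5 in MHCII+CD11c- and at 1662, 2098 and 1876 in MHCII+CD11c+ macrophages. The MHCII+CD11c- libraries were above both other subsets without overlap, library 2 the most. The log2 fold change of LYVE1+CX3CR1+ against MHCII+CD11c- macrophages was -0.58 (SE 0.17, adjusted p = 0.0281), and against MHCII+CD11c+ macrophages 0.03 (95% interval -0.33 to 0.39). The call was lost without MHCII+CD11c- library 2 (-0.42, adjusted p = 0.186) and without library 1, 2 or 3 of LYVE1+CX3CR1+ macrophages (adjusted p = 0.0857, 0.0759 and 0.109). *Junb* gave -0.45 in the first comparison (SE 0.15, adjusted p = 0.0626) and *Fos* -0.29 (SE 0.15, adjusted p = 0.264). *Fos* stood at 3355 to 3578 CPM in LYVE1+CX3CR1+ and at 4108 to 4240.5 CPM in MHCII+CD11c- macrophages, so that its groups did not overlap although the difference was not called.

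*Ier2* (chr8:84661331-84662852, minus strand) stood at 344, 381 and 347 CPM in LYVE1+CX3CR1+, at 549.95, 517 and 521 in MHCII+CD11c- and at 419, 479 and 418 in MHCII+CD11c+ macrophages. The subsets were ordered from LYVE1+CX3CR1+ over MHCII+CD11c+ to MHCII+CD11c-, with no overlap, and of the 3 pairs the outer one passed the test, at -0.57 on the log2 scale (SE 0.15, adjusted p = 0.0126). That call was lost in 4 of 28 other fits. Among them were those without library 1 of MHCII+CD11c- (adjusted p = 0.0534) or library 1 or 3 of LYVE1+CX3CR1+ macrophages (adjusted p = 0.0651 and 0.0647). *Nr4a1*, a receptor that restrains inflammatory genes in macrophages, overlapped in all 3 comparisons (747 to 1354 CPM over the 9 untreated libraries), with intervals of -0.37 to 0.54 against MHCII+CD11c- and -0.40 to 0.51 against MHCII+CD11c+ macrophages. *Atf3* lay at 712 to 1061 CPM in LYVE1+CX3CR1+, at 1052 to 1355 in MHCII+CD11c- and at 642 to 869 in MHCII+CD11c+ macrophages and was not called.

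Against MHCII+CD11c+ macrophages, *Btg2* and *Egr2* were the 2 members called, both lower in LYVE1+CX3CR1+ macrophages. In that comparison 21.8% of all genes were called, with 12.4% of all genes tested called lower, and the median over the members was 0.02. In 4 members no library overlapped, all lower in LYVE1+CX3CR1+ macrophages, against 21.6% of genes. None of the 10 passed between the MHCII+ subsets, where 3.49% of genes were called and 3 members had an unadjusted p under 0.05 (16.1% of genes did). In 8 of the 10 members all 3 MHCII+CD11c+ libraries lay below all 3 MHCII+CD11c- libraries, a pattern found in 10% of genes tested. *Jun* came closest to the threshold, at -0.61 (SE 0.17, adjusted p = 0.0505). Without library 2 of the MHCII+CD11c- IC group, which enters this comparison only through the shared estimate of the spread, *Jun* (adjusted p = 0.00601), *Fos* (adjusted p = 0.0196) and *Atf3* (adjusted p = 0.0458) were called lower in MHCII+CD11c+ macrophages. DESeq2's Wald test called 2 members. Shares of all genes called in these other fits are not given here.

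Markers of other cells moved along with these subset differences. All 10 neutrophil markers (*S100a8*, *Ngp* and others) were called lower in LYVE1+CX3CR1+ than in MHCII+CD11c- macrophages and 9 of 10 lower than in MHCII+CD11c+ macrophages. Their summed level was 18.2 to 23.2 CPM in untreated LYVE1+CX3CR1+, 949.9 to 2244 in MHCII+CD11c- and 129.5 to 730.3 in MHCII+CD11c+ macrophages, with *S100a8*, *Ngp*, *Camp*, *Ltf* and *Lcn2* at 0 in LYVE1+CX3CR1+ macrophages. B cell markers summed to 0 to 1.62, 202 to 277 and 62.5 to 86.8 CPM in the same order, with *Cd79b* at 0 in LYVE1+CX3CR1+ macrophages, and 4 of 4 tested were called lower there in both comparisons. The dendritic cell markers summed to 3.23 to 6.74, 102 to 149 and 238 to 429 CPM, with *Flt3* and *Ccr7* at 0 in LYVE1+CX3CR1+ macrophages. Of the 4 tested, 3 were called lower there in the first comparison and 4 in the second. Of 6 monocyte markers 5 were called lower in each, and 1 was called higher in the second. The monocyte sums overlapped between subsets, at 2552 to 3181, 2656 to 3239.5 and 2214 to 2845 CPM in the same order. The part of these cells in the levels of *Btg2*, *Egr2*, *Jun* and *Ier2* was not tested.

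**Figure D2:**
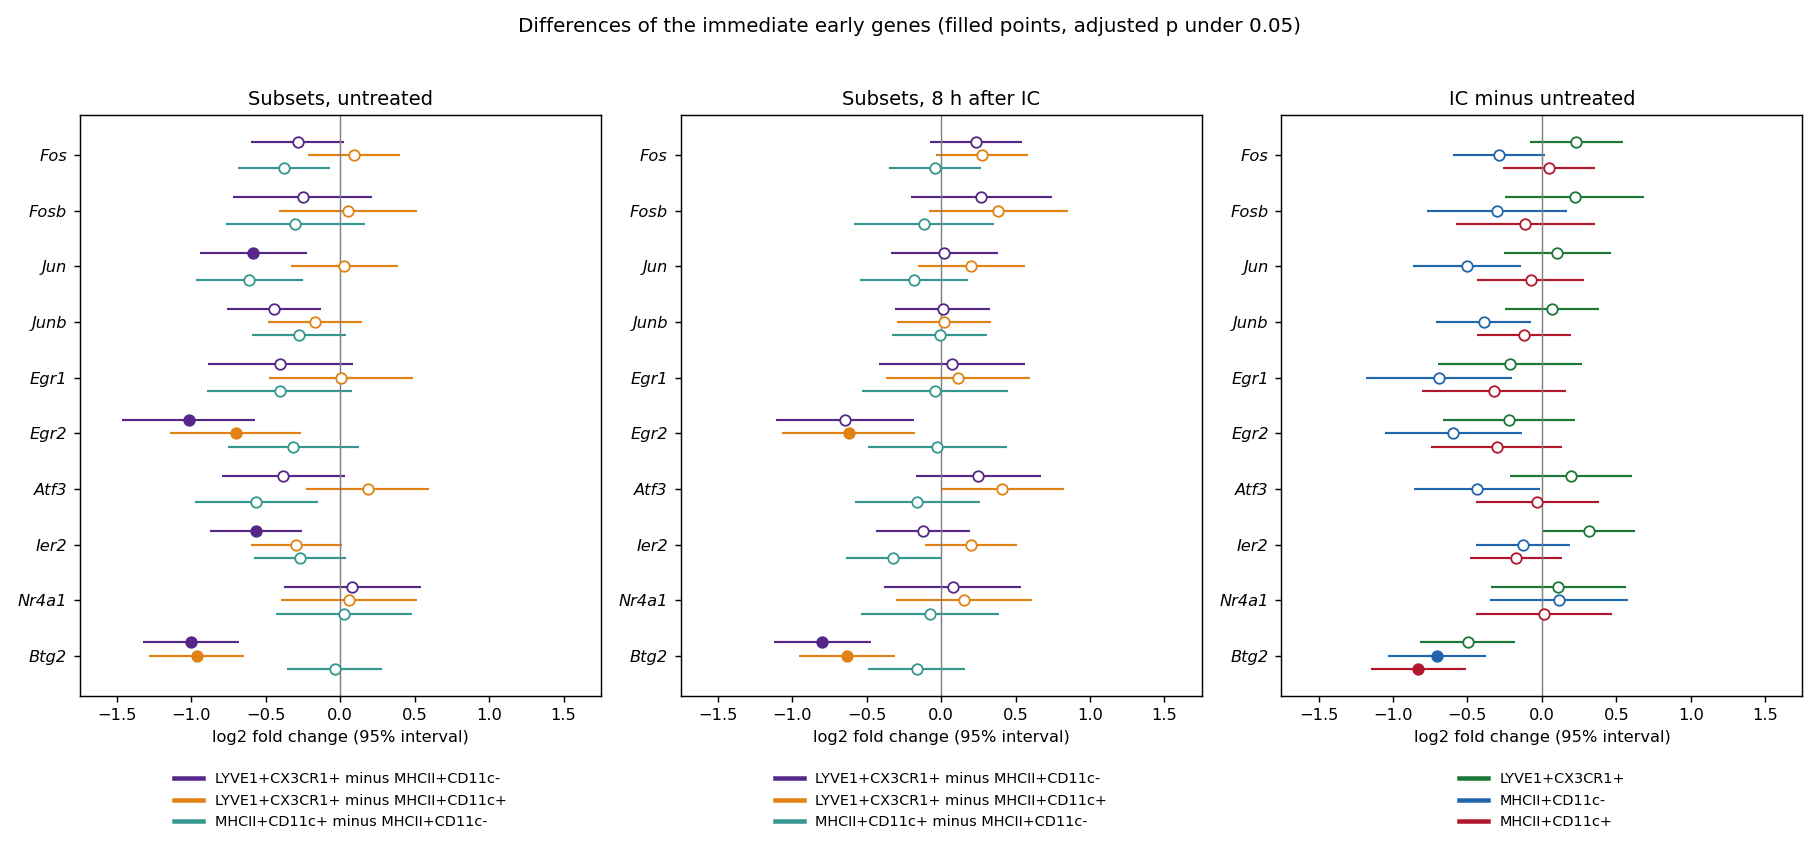
Log2 fold changes of the 10 members (horizontal axis, with 95% intervals as bars) between subsets untreated (left), between subsets 8 h after IC (middle) and after IC against untreated within each subset (right), with filled points for an adjusted p under 0.05. *Btg2* has filled points in all 3 panels, *Egr2* in the first 2, and *Nr4a1* lies near 0 throughout.

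Promoter stretches that hold motif matches are shown for *Btg2*, *Egr2*, *Fos*, *Fosb* and *Nr4a1*. RefSeq windows of GRCm38.p6, from 250 bases before a start site to 50 bases from it on, were found for 8 of the 10 members (not for *Ier2* and *Egr1*). *Jun*, although called between untreated subsets, had none of the motifs named below in its window. *Junb* and *Atf3* had matches that are not printed. The core TGACG of a cAMP response element, bound by CREB and ATF proteins, was found on either strand in 7 of the 8 members and in 23% of all 27025 genes with a window. The full palindrome TGACGTCA, which contains that core on both strands, was found in *Btg2* alone of the 8, and in 2.03% of genes. The EGR site GCGNGGGCG was present in *Btg2*, *Fosb* and *Nr4a1* (6.27% of genes), and the CArG box of SRF in *Egr2* alone of the 8 (1.81% of genes). A gene counted if any of its windows matched. *Egr2* had 5 windows, while all 27025 genes had 32851 in all, so *Egr2* had more room for a match. Sites farther than 250 bases before a start site were not read. The AP-1 sites TGACTCA and TGAGTCA were in none of the 8 windows (5.95% of genes), and TATAAA was in *Fos* and *Junb* (15.7% of genes). These matches describe letters and not binding. The stretches below are 5' to 3' on the strand of the gene, and capitals mark the matches.
Btg2, chr1:134079261-134079340, minus strand: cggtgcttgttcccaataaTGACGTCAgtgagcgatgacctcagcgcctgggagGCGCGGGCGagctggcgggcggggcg
Egr2, chr10:67537787-67537816, plus strand: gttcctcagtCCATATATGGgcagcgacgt
Fos, chr12:85473750-85473869, plus strand: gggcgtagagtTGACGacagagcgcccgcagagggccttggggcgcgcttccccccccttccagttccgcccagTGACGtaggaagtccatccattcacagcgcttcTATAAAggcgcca
Fosb, chr7:19310076-19310120, minus strand: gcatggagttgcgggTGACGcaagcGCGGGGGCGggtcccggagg
Nr4a1, chr15:101266761-101266820, plus strand: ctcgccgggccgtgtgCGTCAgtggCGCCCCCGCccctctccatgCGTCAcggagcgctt

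In the *Btg2* stretch the palindrome comes first and the EGR site after it. The *Fos* stretch holds a pair of TGACG cores and ends just past its TATA box, the *Egr2* stretch holds the CArG box, and *Fosb* and *Nr4a1* each set a TGACG core next to an EGR site.

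IC were next compared with the untreated state, subset by subset. At 8 h no member was called higher in any subset, and *Btg2* was the member called lower. Of the 10 members, none was called in LYVE1+CX3CR1+ macrophages (0.464% of genes tested were called), and *Btg2* alone was called lower in each MHCII+ subset. There 1.06% of genes were called in MHCII+CD11c- macrophages, with 0.512% of all genes tested called lower, and 0.673% in MHCII+CD11c+ macrophages, with 0.19% of all genes tested called lower. An unadjusted p under 0.05 was found for 2 members in LYVE1+CX3CR1+ (8.71% of genes), 6 in MHCII+CD11c- (14.6%) and 1 among MHCII+CD11c+ macrophages (9.48%), and in LYVE1+CX3CR1+ macrophages DESeq2's Wald test called 1 member, *Btg2*. Averaged over the subsets, *Btg2* was again the single member called, where 6.21% of genes were called, with 3.09% of all genes tested called lower.

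*Btg2* after IC stood at 392, 381 and 387 CPM in LYVE1+CX3CR1+ macrophages, at 546, 832 and 646 in MHCII+CD11c- and at 594, 532 and 671 in MHCII+CD11c+ macrophages. In each subset every IC library lay below every untreated library. Its log2 fold changes were -0.50 in LYVE1+CX3CR1+ (SE 0.15, adjusted p = 0.214), -0.70 in MHCII+CD11c- (SE 0.16, adjusted p = 0.0237) and -0.83 in MHCII+CD11c+ macrophages (SE 0.15, adjusted p = 0.0099). The average was -0.68 (SE 0.09, adjusted p = 3.29e-05), 1.60 times lower, and was called in each of 26 other fits. All of these took the libraries of different subsets as separate pools of mice, or blocked the replicate number across treatments. Whether the subsets of a treatment share pools is not given in the labels. If they do, the p-value of the average may be too small. The single-subset calls held less well. The one in MHCII+CD11c- macrophages was lost in 5 of 27 other fits, among them those without untreated library 1 (-0.68, adjusted p = 0.0644), untreated library 2 (-0.66, adjusted p = 0.0899) or IC library 1 (-0.59, adjusted p = 0.108), and adjusted p was 0.376 when only the 2 groups were fitted. The one in MHCII+CD11c+ macrophages was lost in 2 of 27, without library 2 of the untreated (-0.75, adjusted p = 0.0904) or of the IC group (-0.77, adjusted p = 0.0591).

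*Egr1* and *Egr2* came next. *Egr1* in MHCII+CD11c- macrophages stood at 2128, 3082 and 2492 CPM untreated and at 2032, 715 and 1996 CPM after IC, and its groups did not overlap, but library 2 was far below the other IC libraries. Averaged over subsets, the log2 fold change of *Egr1* was -0.41 (SE 0.14, adjusted p = 0.0767) and that of *Egr2* -0.37 (SE 0.13, adjusted p = 0.08). Without library 2 of the MHCII+CD11c- IC group, *Egr1* gave -0.29 (SE 0.08, adjusted p = 0.0223) and *Egr2* -0.29 (SE 0.10, adjusted p = 0.0852). *Egr1* was also called without library 1 (-0.48, adjusted p = 0.0431) or 3 (-0.48, adjusted p = 0.0372) of that group, and *Egr2* without library 3 of it (-0.45, adjusted p = 0.0393) or untreated LYVE1+CX3CR1+ library 1 (-0.44, adjusted p = 0.0304).

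The AP-1 subunits gave no called difference after IC. *Fos* stood at 3355, 3578 and 3370 CPM untreated and at 4442, 3842 and 3815.5 CPM after IC in LYVE1+CX3CR1+ macrophages. All 3 IC libraries lay above the untreated ones there, with a difference of 0.23 on the log2 scale (SE 0.15, adjusted p = 0.751). In MHCII+CD11c- macrophages *Fos* stood at 4108, 4224 and 4240.5 CPM untreated and at 4032, 2500.1 and 3743 after IC, all 3 below the untreated libraries, at -0.29 (SE 0.15, adjusted p = 0.386). Its value in MHCII+CD11c+ macrophages was 0.05, and its average over the subsets was 0.00, with an interval of -0.18 to 0.18. *Jun*, *Junb* and *Fosb* gave averages between -0.16 and -0.06, with intervals that all included 0. The intervals of *Atf3* (-0.33 to 0.15), *Ier2* (-0.17 to 0.19) and *Nr4a1* (-0.18 to 0.34) also included 0.

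In MHCII+CD11c- macrophages 8 of the 10 members had all IC libraries below all untreated ones (8.56% of genes tested), and their median log2 fold change was -0.41 against -0.01 over all genes. Without library 2 of the IC group that median was -0.28, and the values of *Egr1* and *Fos* moved from -0.69 to -0.35 and from -0.29 to -0.11, while that of *Fosb* moved from -0.30 to 0.01. *Btg2* went the other way, from -0.70 to -0.87 (SE 0.14, adjusted p = 0.00165). In MHCII+CD11c+ macrophages 4 members (*Egr1*, *Egr2*, *Ier2* and *Btg2*) had all IC libraries below the untreated ones (9.94% of genes). In LYVE1+CX3CR1+ macrophages *Btg2* was below and *Fos* above (19.1% of genes did not overlap in either direction).

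Whether the response to IC differed between subsets was tested as an interaction. No member was called in any of the 3 contrasts, neither by edgeR nor by DESeq2's Wald test, and over all genes edgeR gave 0, 1 and 1 calls (0%, 0.00948% and 0.00948%). For LYVE1+CX3CR1+ minus MHCII+CD11c- macrophages, 9 of the 10 members had a value above 0 (median 0.47, all genes 0.01) and 5 had an unadjusted p under 0.05 (6.52% of genes did). *Atf3* gave the largest value, 0.63 (SE 0.28, adjusted p = 0.751), and *Jun* 0.61 (SE 0.25, adjusted p = 0.751). In LYVE1+CX3CR1+ minus MHCII+CD11c+ macrophages 1 member had an unadjusted p under 0.05 (4.49% of genes), and in MHCII+CD11c+ minus MHCII+CD11c- macrophages 0 did (6.09% of genes). Without library 2 of the MHCII+CD11c- IC group the first median was 0.37 and 3 members had an unadjusted p under 0.05.

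Other readouts of the libraries moved with treatment. *Malat1* and *Neat1* together were lower after IC in 8 of the 9 IC libraries (3718 to 6081 CPM, with 13171 in the exception, against 7559 to 14101 untreated), and both were called lower in the average over subsets. The heat shock list, chaperones that are also raised by warming and digestion, summed to 6073 to 10070 CPM untreated and to 10375 to 15719 after IC. Of its 13 genes, 9 were called higher in the average (*Hspa1b* at 0.82, adjusted p = 0.00169, *Hsph1* at 0.76, adjusted p = 0.00429, and *Hspa1a* at 0.73, adjusted p = 0.00345) and none lower. The neutrophil markers were called higher in 6 of 10 cases, with summed levels after IC of 19.2 to 194 CPM in LYVE1+CX3CR1+, 1676 to 5017 in MHCII+CD11c- and 1236 to 2727 in MHCII+CD11c+ macrophages. All 5 erythroid markers were called lower in the average, with sums of 4.04 to 2832 CPM over the untreated and 0 to 412 over the IC libraries, and 3 of 6 monocyte markers higher. The Schwann cell marker *Mbp* was called lower in the average (-1.13, adjusted p = 0.000303) and within LYVE1+CX3CR1+ macrophages (-1.74, adjusted p = 0.00591). It stood at 39.8 to 115 CPM untreated and 14.1 to 27.4 after IC in LYVE1+CX3CR1+, at 76.6 to 142 and 41.8 to 48.95 in MHCII+CD11c-, and at 98.8 to 125 and 70.96 to 88.1 in MHCII+CD11c+ macrophages. Of the dendritic cell markers 1 of 4 and the 1 T and NK cell marker tested were also called lower in the average. Transcripts of the sort proteins moved too. Of 5, 2 were called higher in the average and none lower, and within MHCII+CD11c- macrophages 1 was called higher and 2 lower. *Lyve1* stood at 329 to 439 CPM untreated and 1001 to 1232 after IC in MHCII+CD11c+ macrophages. *H2-Ab1* stood at 4548 to 4745 and 2670 to 3088 CPM in MHCII+CD11c- macrophages. The part of these in the *Btg2* difference was not tested.

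The subset order of *Btg2* was also found after IC. LYVE1+CX3CR1+ macrophages were lower again, with log2 fold changes of -0.80 against MHCII+CD11c- (SE 0.16, adjusted p = 0.00132) and -0.63 against MHCII+CD11c+ macrophages (SE 0.16, adjusted p = 0.00404), without overlap of libraries, and both were called in all 28 other fits. *Btg2* was the single member called against MHCII+CD11c- macrophages, where 9.77% of genes were called, with 6.45% of all genes tested called lower, and the single member without overlap (25.1% of genes). Against MHCII+CD11c+ macrophages (19.7% of genes called, with 11.5% of all genes tested called lower) *Egr2* was called as well, at 155, 151 and 149.8 CPM against 273, 208 and 223, a difference of -0.62 on the log2 scale (SE 0.22, adjusted p = 0.0448). That call was kept in 13 of 28 other fits and in 3 of the 18 that each left out 1 library (adjusted p up to 0.177, without library 1 of the MHCII+CD11c+ IC group). It was 1 of 3 members without overlap, with *Btg2* and, higher, *Fos* (38% of genes). *Egr2* against MHCII+CD11c- macrophages gave -0.65 (SE 0.23, adjusted p = 0.0732), with library 2 of that group at 128 CPM, under all LYVE1+CX3CR1+ libraries, and its partners at 275 and 287. Without that library it was -0.87 (SE 0.19, adjusted p = 0.00355). *Fos* (0.28, adjusted p = 0.0319) and *Fosb* (0.40, adjusted p = 0.0365) were then called higher in LYVE1+CX3CR1+ than in MHCII+CD11c+ macrophages. The differences of *Jun* and *Ier2* that were called without treatment were 0.02 (interval -0.34 to 0.38) and -0.12 (interval -0.44 to 0.19) after IC. Without library 2 of the MHCII+CD11c- IC group they were -0.13 (SE 0.15) and -0.125 (SE 0.15), and neither was called. Against MHCII+CD11c- macrophages after IC the median over the 10 members was 0.05 with that library and -0.13 without it. Values below 0 numbered 3 with it and 8 without. None of the members was called between the MHCII+ subsets after IC (2.84% of genes), where 1 had an unadjusted p under 0.05 (15.6% of genes), 1 did not overlap (*Ier2*, 16.8% of genes) and DESeq2's Wald test called none.

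Relatives of the members in the same gene families, singled out after their values were seen, included larger differences between untreated subsets than the members. *Nr4a3* stood at 33.02 to 72.1 CPM in LYVE1+CX3CR1+, at 95.4 to 141 in MHCII+CD11c- and at 197 to 293 in MHCII+CD11c+ macrophages, with LYVE1+CX3CR1+ macrophages at -1.08 on the log2 scale (SE 0.30, adjusted p = 0.0187) against the former and at -2.10 (SE 0.29, adjusted p = 5.37e-06) against the latter, while *Nr4a1* was not called. *Nr4a2* was lower than in MHCII+CD11c+ macrophages at -1.10 (SE 0.24, adjusted p = 0.0013). *Egr3* was lower than in MHCII+CD11c- macrophages at -1.03 (SE 0.32, adjusted p = 0.0349), close to the value of *Egr2*. *Btg1*, the paralog of *Btg2*, was lower in both comparisons, at -0.80 (SE 0.15, adjusted p = 0.000498) and -1.09 (SE 0.14, adjusted p = 2.65e-06). After IC *Btg1* gave an average of 0.05 (SE 0.08, adjusted p = 0.844), against -0.68 for *Btg2*. *Jund* was lower in both comparisons, at -0.86 (SE 0.16, adjusted p = 0.000514) and -0.61 (SE 0.16, adjusted p = 0.00509).

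**Figure D3:**
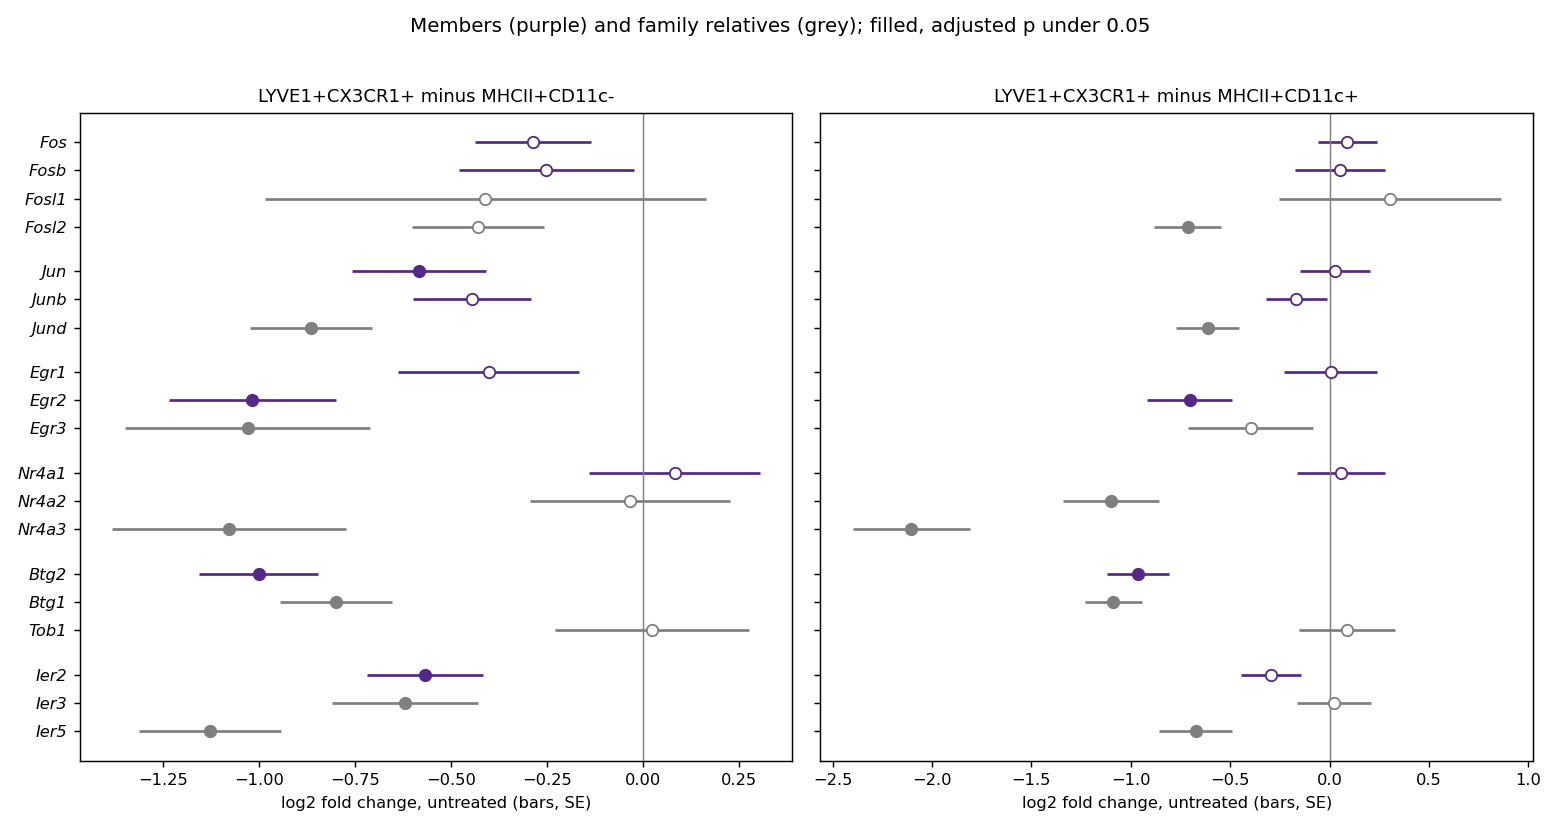
Log2 fold changes of LYVE1+CX3CR1+ against MHCII+CD11c- (left) and MHCII+CD11c+ (right) untreated macrophages for members (purple) and relatives of their families (grey), with SE as bars and filled points for an adjusted p under 0.05. *Nr4a3* reaches -2.10 on the right while *Nr4a1* lies at 0.06, and *Btg1* and *Btg2* lie left of 0 in both panels.

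A list of 46 other early response genes was read in the same fit. Between untreated LYVE1+CX3CR1+ and MHCII+CD11c- macrophages 13 were lower and 2 higher, and against MHCII+CD11c+ macrophages 14 were lower and 7 higher. Over all genes tested, 11.4% and 21.8% were called in these comparisons, with 7.12% and 12.4% of all genes tested called lower. Examples with values for both comparisons are *Dusp5*, a nuclear phosphatase of ERK (-1.71 and -2.64), *Phlda1* (-1.85 and -1.95), *Dusp2*, another phosphatase of these kinases (-1.68 and -1.41), and the matricellular gene *Cyr61* (1.95 and 2.82), and *Nr4a3* was among them at -2.10 in the second. Between the untreated MHCII+ subsets 4 were higher and 2 lower in MHCII+CD11c+ macrophages, *Nr4a2* (1.06), *Nr4a3* (1.02) and *Dusp5* (0.93) among the first and *Rhob* (-0.99) among the second. Of all genes tested, 3.49% were called there. None of the 46 was called after IC in any 1 subset (6, 12 and 10 had an unadjusted p under 0.05, as did 8.71%, 14.6% and 9.48% of genes tested). In the average, where 6.21% of genes were called, 6 of the 46 were. *Tob1* (0.53) and *Rgs1* (0.50) were higher and *Socs3* (-0.42), *Zfp36l2* (-0.35), *Fosl2* (-0.34) and *Klf6* (-0.30) lower.

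Upstream of these genes, the 26 kinases and factors that lead to them were read as well. *Mkl1*, a coactivator of SRF, was the 1 gene called between LYVE1+CX3CR1+ and MHCII+CD11c- macrophages (-1.10, adjusted p = 0.0452), and against MHCII+CD11c+ macrophages *Elk3*, a ternary complex factor, was higher (1.91, adjusted p = 8.27e-06) and *Mkl1* lower (-1.86, adjusted p = 0.000186). In that second comparison 2 of the 26 were called higher (*Elk3* and *Mapk3*, which encodes ERK1) and 3 lower (*Mkl1*, *Mkl2* and *Crem*), where 21.8% of all genes were called. *Srf* itself was uncalled in both (-0.07 and -0.35). After IC, *Elk4* (-0.58) and *Mapk14*, which encodes p38α (-0.37), were lower in the average and *Atf1* (0.54) higher, 3 of the 26 where 6.21% of all genes were called, and none of the 26 was called in any 1 subset. Among 11 acute cytokine and chemokine genes tested, *Il1b* (1.33, adjusted p = 0.000116), *Cxcl1* (1.13, adjusted p = 0.0116) and *Cxcl2* (0.69, adjusted p = 0.000849) were called higher in the average, where 6.21% of all genes were called. None of the 11 was called lower, though 3 had values below 0. No member was called higher in that fit.

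Within groups most members deviated in the same direction from library to library. After each gene's group mean was removed, the Pearson correlation over the 18 libraries had a median of 0.63 over the 45 pairs of members, with the highest value, 0.90, for *Fos* and *Egr1*. Without library 2 of the MHCII+CD11c- IC group that pair gave 0.54, and the highest of the pairs was *Egr1* with *Atf3* at 0.82. The members of a library share its depth, handling and pool of mice, and the part of these in the values was not tested. *Btg2* was the exception, with values below 0 for 8 of its 9 pairs, down to -0.50 with *Fos*. That pattern rested on library 2 of the MHCII+CD11c- IC group, in which *Egr1* lay 0.99 below its group mean on the log2 scale, *Fos* 0.42 below and *Btg2* 0.32 above. Over the other 17 libraries none of the 9 *Btg2* pairs was below 0, and the median over all pairs was 0.37.

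**Figure D4:**
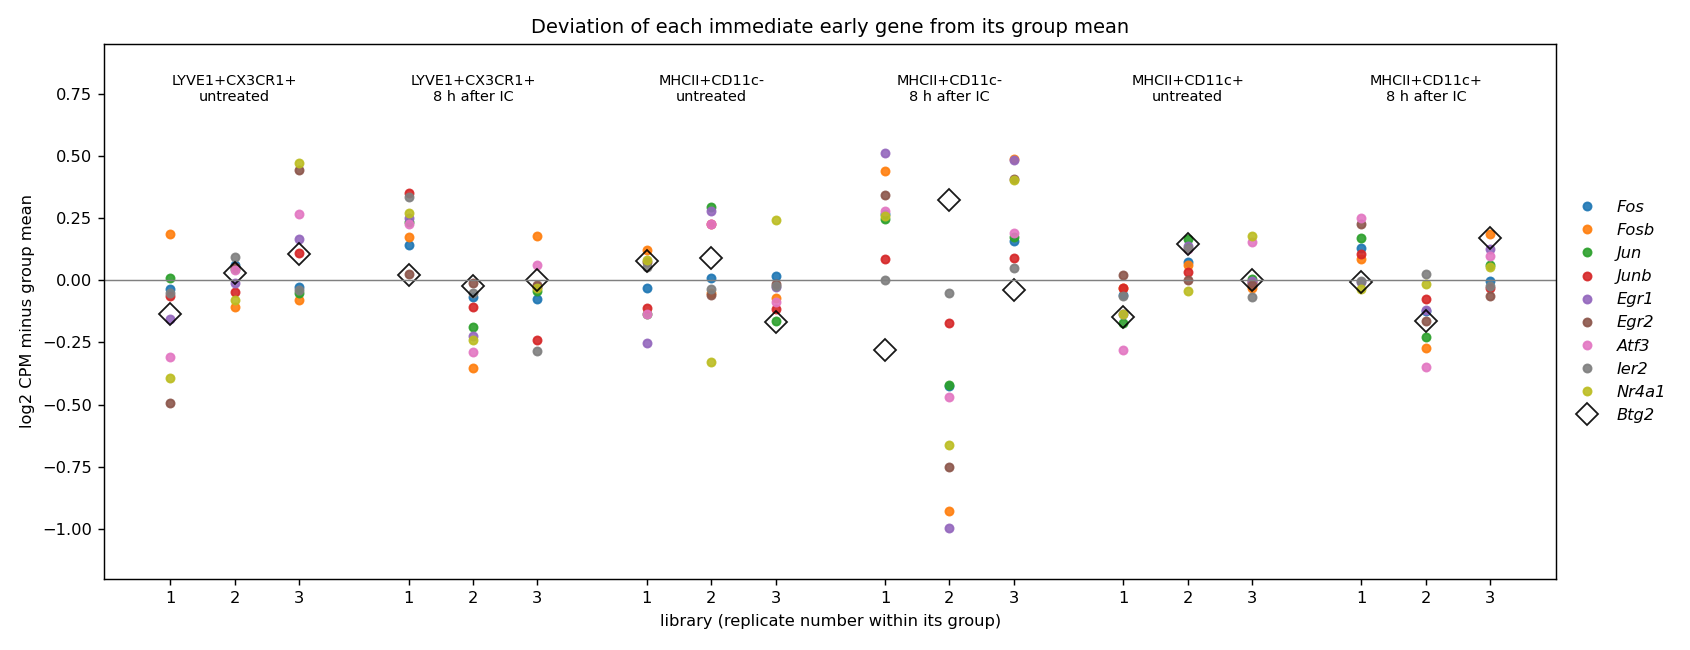
Deviation of log2 CPM from the group mean (vertical axis) for each member in each of 18 libraries (horizontal axis), with *Btg2* as open black diamonds and the other members as coloured points. In library 2 of MHCII+CD11c- macrophages after IC the other members lie below 0, *Egr1* lowest at -0.99, and *Btg2* lies at 0.32.

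The genes whose deviations most resembled the mean of the members, among 4909 genes compared, were *Zfp36* (0.97), *Nfkbiz* (0.95), *Ppp1r15a* (0.93), *Ciz1* (0.93), *Ptbp1* (0.92), *Klf4* (0.92) and *Sf3a1* (0.91). Of these 7, 4 were on the list of other early response genes. Over 17 libraries *Zfp36* stood at 0.90 and *Nfkbiz* at 0.88, while *Klf4* stood at 0.77. The median over 43 genes of the list was 0.46, and over all genes compared 0.11, and over 17 libraries these were 0.50 and 0.01.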

How the data were processed

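Bulk RNA-seq of 18 libraries was analysed, 3 for each of 3 sorted subsets, untreated or 8 h after IC. Per the study's methods, read 1 lost its leading bases, adapters were removed (Trim Galore), reads were aligned to mm10 with HISAT2 and assigned to genes with featureCounts. The authors deposited raw counts per gene symbol. Versions, annotation, strand setting and duplicate handling are not given in the sources used here, so counts of overlapping genes are uncertain. A combined table held the same counts and was not used. Groups came from the sample titles.

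From the counts, TMM factors, CPM and edgeR 4.0.16 quasi-likelihood tests were computed in R 4.3.3 over all 18 libraries and 6 groups. filterByExpr (minimum count 10, minimum total 15) kept 10550 genes, all 10 members among them. Benjamini-Hochberg adjustment was over these genes, with a threshold of 0.05. The SE is the log2 fold change divided by the square root of F. Correlations used log2 CPM with a prior count of 2 and genes whose log2 CPM averaged 5 or more. Levels per kb used exon unions of GENCODE M21. No libraries of a group held identical counts. The study used DESeq2 with sva, so DESeq2 1.42.0 and a surrogate variable of sva 3.50.0 were alternatives, with DESeq2 size factors, other filters, fits to the groups compared, replicate blocks and leaving out each library. Leaving out the 2 smallest libraries, or *Rn45s*, *Malat1* and *Neat1*, was added after seeing the data. The tests were checked on simulated counts.

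The members and gene lists were chosen with earlier results of these data known. Besides the members, the text names up to 4 called genes per list and comparison with the largest changes, and the 8 genes most like the members, 1 of which is not reported here. Family relatives, *Klf6*, *Srf* and *Mapk3*, and single markers, were named outside that rule after their values were seen.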

Additional observations from a re-analysis of the deposited data

Results flagged for a closer look

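The values of *Fos* after IC lay on opposite sides of the untreated ones in 2 subsets, and *Fos* was picked from the 10 members for this pattern. Of all genes tested, 19.1% did not overlap in either direction in LYVE1+CX3CR1+ macrophages. In MHCII+CD11c- macrophages 8.56% were lower without overlap. All 3 libraries of LYVE1+CX3CR1+ macrophages after IC were above the untreated ones (log2 fold change 0.23, adjusted p = 0.751 in edgeR's test) and all 3 of MHCII+CD11c- macrophages were below (-0.29, adjusted p = 0.386), so neither difference passed the test. The difference of the 2 responses was 0.52 (SE 0.21) and did not pass it either (adjusted p = 0.751). Without library 2 of the MHCII+CD11c- IC group the value in MHCII+CD11c- macrophages was -0.11 (adjusted p = 0.672) and the difference of the responses 0.35 (SE 0.14, adjusted p = 0.58).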

How the results depend on the processing

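No difference that was called in any setting changed direction in another, and of 130 pairs of member and contrast 12 were called as reported, 26 in at least 1 setting and 104 in none. Between untreated LYVE1+CX3CR1+ and MHCII+CD11c- macrophages the number of members called (4) was 7 when only the compared groups were fitted or 1 surrogate variable was added, and 2 to 5 when 1 library was left out. Against MHCII+CD11c+ macrophages (2) it was 1 to 2 when 1 library was left out. Between the untreated MHCII+ subsets (0) it was 1 with DESeq2 size factors, when each library had to hold 10 or more counts and without *Rn45s*, *Malat1* and *Neat1*. It was 2 by DESeq2's Wald test, with no filter and without the 2 smallest libraries, 3 with only the compared groups or a surrogate variable, and 0 to 3 when 1 library was left out. For IC in LYVE1+CX3CR1+ macrophages (0) it was 1 by the Wald test, with only the compared groups and with a surrogate variable. In MHCII+CD11c- macrophages (1) it was 2 with no filter or a surrogate variable, 0 with only the compared groups or without the 2 smallest libraries, and 0 to 1 when 1 library was left out. In MHCII+CD11c+ macrophages (1) it was also 0 to 1. Averaged over subsets (1) it was 3 by the Wald test, without the filter, with 10 or more counts required per library and with a surrogate variable, and 1 to 3 when 1 library was left out. After IC, LYVE1+CX3CR1+ against MHCII+CD11c- macrophages (1) gave 2 by the Wald test, with a surrogate variable and without the 2 smallest libraries, and 1 to 2 when 1 library was left out, and against MHCII+CD11c+ macrophages (2) the number was 4 with a surrogate variable or without the 2 smallest libraries, and 1 to 4 when 1 library was left out. Shares of all genes called in these settings, and with the replicate blocks below, are not given here. The counts of members can therefore not be set against them. The cause was not tested. The 3-count floor was 1.44 to 11.3 CPM per library, far under every member.

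The replicate numbers did not pair the libraries by the labels. Deviations from group means correlated at 0.009 to 0.231 over 18 pairs of the same treatment and number, at -0.193 to 0.103 over 36 pairs of the same treatment and another number, and at -0.192 to 0.085 over 27 pairs of the same number across treatments. As a hint from the data, 17 of 18 libraries correlated best with their own number within a treatment. With the replicate block, the members called between the untreated MHCII+ subsets were 1 (*Jun*, adjusted p = 0.0497), and with the replicate block within treatment 2 (*Jun* and *Atf3*). In the other comparisons the replicate block gave the same number of calls, and within treatment 5 in place of 4 (LYVE1+CX3CR1+ against MHCII+CD11c-, untreated) and 3 in place of 2 (LYVE1+CX3CR1+ against MHCII+CD11c+, IC). The block within treatment was not fitted to the comparisons of IC with untreated, so pools shared between subsets are not covered there.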
